A study of Mus musculus with 12 samples.

Results

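The molecular chaperones described here are the heat shock proteins and their DNAJ cochaperones. They were taken by symbol as every gene whose name begins with Hspa, Hspb and a digit, Hsp90, or Dnaja, Dnajb or Dnajc and a digit, with Hspd1, Hspe1 and Hsph1. This gave 72 of the 20775 genes listed in both expression tables. A member was tested where its mean RPKM (reads scaled to transcript length and sequencing depth) over the 6 samples of a stage was above 1. That held for 60 members at E10.5 and 63 at 4 weeks, and the 60 were among the 63. The study deleted Med30, a subunit of the Mediator complex that links transcription factors to RNA polymerase II, in mouse cardiomyocytes of C57BL/6 strain. At E10.5, whole hearts of Med30 f/f; Tnnt-Cre embryos (cKO, 3 samples) were compared with those of littermates that carried no Cre (Ctrl, 3 samples). In the adult, cardiomyocytes isolated from Med30 f/f; αMHC-MerCreMer mice of about 3 months of age, 4 weeks after tamoxifen (icKO, n = 3), were compared with those of Cre-negative Med30 f/f mice also given tamoxifen (Ctrl, n = 3). The labels call both control groups wild type. All Ctrl samples lack Cre, so in these RNA values an effect of Cre itself cannot be told apart from the loss of Med30, and the floxed allele, in which exon 1 of Med30 is removed by Cre, came from 1 embryonic stem cell clone. The study reports that αMHC-MerCreMer mice with no floxed allele showed neither deaths nor impaired heart function after tamoxifen. No RNA of such mice is among the samples. Nothing in the labels says that the samples of a group came from separate animals, so the p-values measure the spread between these samples, which may be technical.

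Chaperones bind unfolded proteins and help them fold, be imported into an organelle or be degraded. HSP70 proteins cycle between ATP-bound and ADP-bound states, DNAJ proteins deliver clients to them and trigger ATP hydrolysis, HSP110 proteins exchange the nucleotide, and HSP90 takes over clients that need late folding. Small heat shock proteins hold clients without ATP and are abundant in heart muscle. When unfolded proteins accumulate, heat shock factor 1 induces cytosolic members through heat shock elements, and a separate response induces members of the endoplasmic reticulum (ER) through its own elements.

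Med30 itself was lower in each knockout sample, with RPKM of 10.6, 13.3 and 11.3 in Ctrl against 1.38, 2.02 and 1 in cKO at E10.5, and 7.66, 7.45 and 7.66 in Ctrl against 3.81, 3.16 and 1.82 in icKO at 4 weeks. The deletion takes out exon 1 and RPKM counts the whole gene, so reads of other exons can remain. Here and below, 3 values of a group are given in the order of replicates 1, 2 and 3. Estimated depth was 13600000 to 19900000 reads at E10.5 and 11900000 to 17500000 reads at 4 weeks, and 3 reads on a 2 kb transcript correspond to an RPKM of 0.0754 to 0.126. Cardiomyocyte markers were expressed in every sample, and their summed RPKM fell from a range of 15942 to 17218 in Ctrl to one of 5330 to 6690 in icKO. Of the 5 other marker lists, sums were higher in icKO without overlap for fibroblasts (4.14 to 6.88 against 26.6 to 43.2), endothelial cells (6.94 to 18.2 against 18.5 to 29.6), macrophages (1.78 to 2.71 against 3.6 to 6.5) and mural cells (5.43 to 14.7 against 17.8 to 35.8). Within the endothelial, macrophage and mural lists, the single genes Cdh5, Kdr, Tek, Ptprc, Lyz2, Rgs5 and Kcnj8 overlapped between adult Ctrl and icKO. The adult erythroid sums overlapped. At E10.5 the cardiomyocyte sum was 4063 to 5334 in Ctrl and 3029 to 3621 in cKO, the macrophage sum 8.51 to 11.2 and 4.87 to 6.76, and the mural sum 11 to 14.6 and 15.4 to 15.9, each without overlap. Those E10.5 sums rest on few genes. Only Lyz2 of the macrophage list, Cspg4 of the mural list, and Myh7, Actc1 and Ryr2 of the cardiomyocyte list differed without overlap. The other markers of these lists overlapped between Ctrl and cKO. The erythroid sum was 244 to 787 in Ctrl and 340 to 2082 in cKO. No marker of these lists was at 0 in all samples of a stage. In such bulk RNA, fewer cells of a type and less RNA per cell cannot be told apart, and the part of these shifts in the chaperone values was not tested. The 20 most abundant genes took 24.8% to 25.4% of the summed RPKM in adult Ctrl and 11.5% to 13.1% in icKO. Over all genes tested, medians of the log2 fold change on RPKM as deposited were 0.57 at 4 weeks and −0.13 at E10.5, and members are read against them. Median-ratio scaling, which sets the typical gene equal between samples, brought these medians to 0.04 and −0.01.

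After 4 weeks, 40 of 63 members tested were higher in icKO and 11 were lower, at an adjusted p under 0.05 (limma, Benjamini-Hochberg over all genes tested). These shares, 63.5% and 17.5%, stand beside 60.6% higher and 18.1% lower among the 9517 genes tested, so the number of members that passed was close to that of genes at large. Median-ratio scaling gave 26 higher and 22 lower members (41.3% and 34.9%), beside 34.7% and 33.5% of all genes. The median log2 fold change of the members was 0.63 as deposited and 0.09 after median-ratio scaling. Passing with a log2 fold change beyond 1, 18 members were higher and 2 lower, where 28% and 8.45% of all genes were. After median-ratio scaling, 8 members were higher and 9 lower beyond 1, where 11.6% and 15.5% of all genes were. Of the 63, 3 members (Hspa1a, Hspa1b and Hspa2) had a Ctrl mean RPKM of 1 or less and entered the test through icKO, and 1 (Hspa12a) entered through Ctrl. Groups did not overlap for 40 members that were higher and 12 that were lower in icKO (63.5% and 19%), beside 62% and 18.9% of all genes. The mitochondrial members are counted apart. Of the 53 members tested outside the mitochondrial list, 39 were higher and 5 lower, with 26 and 12 under median-ratio scaling. Of the 10 mitochondrial members, 1 was higher and 6 lower, with 0 and 10 under median-ratio scaling.

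**Figure D1:**
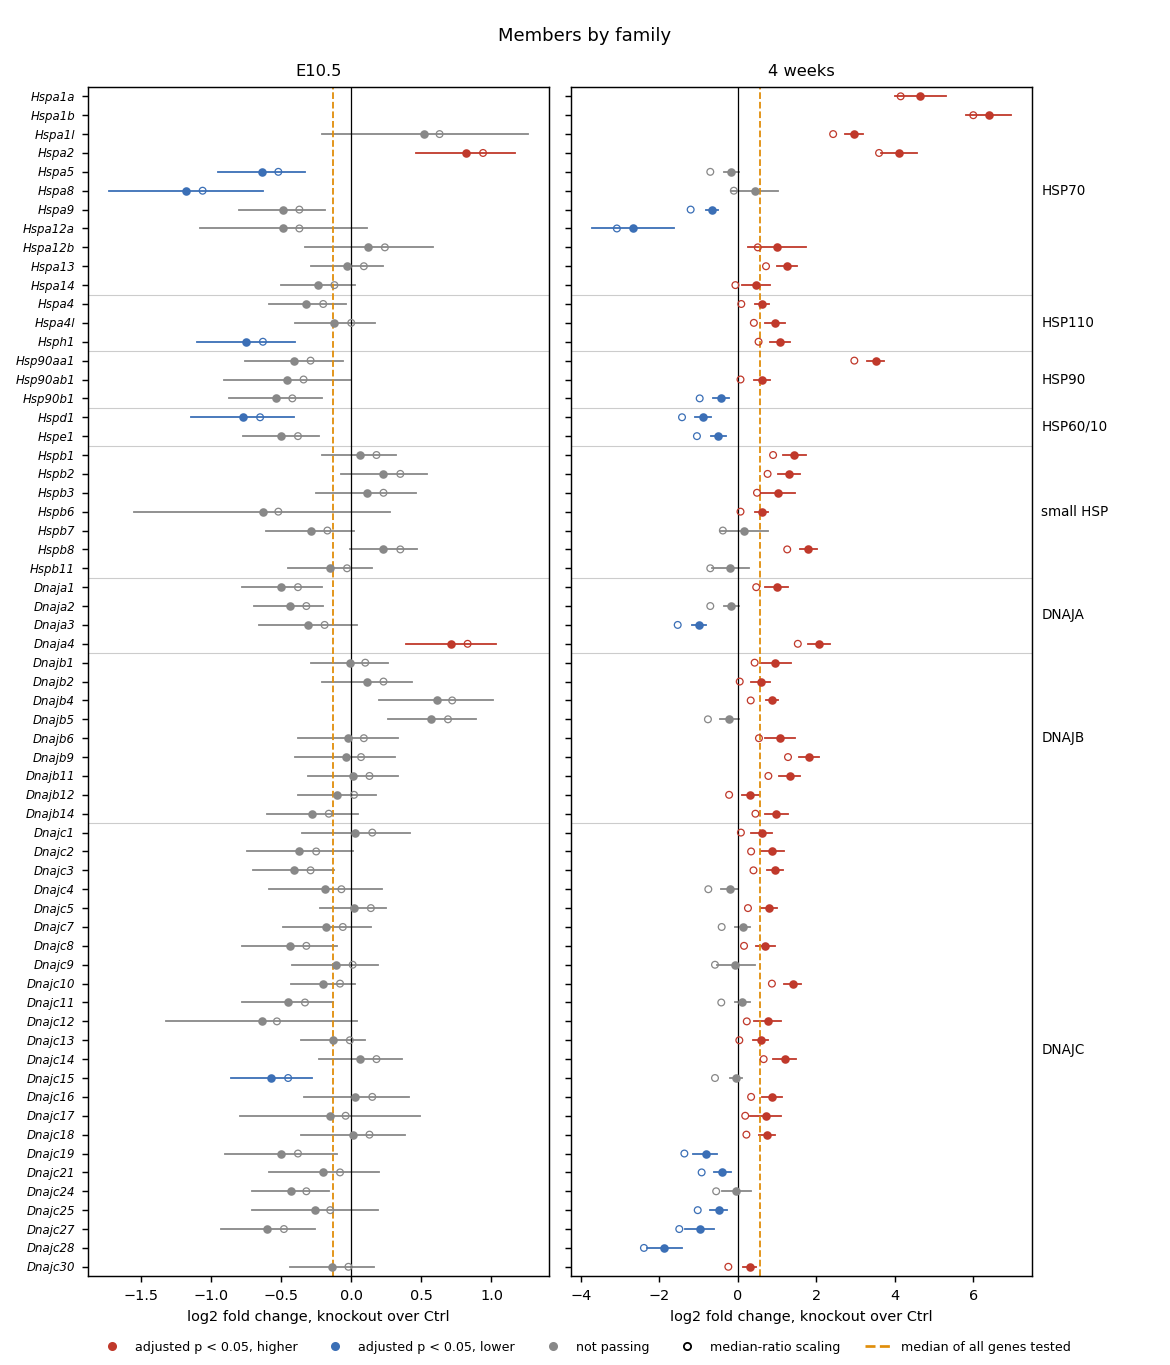
Log2 fold change of each member tested, knockout over Ctrl, at E10.5 (left) and 4 weeks (right, on another horizontal scale), by family, with filled points for RPKM as deposited (bars, 95% confidence intervals; red higher, blue lower and grey not passing at an adjusted p of 0.05), open points after median-ratio scaling and a dashed line at the median of all genes tested (−0.13 and 0.57). At 4 weeks Hspa1b, Hspa1a, Hspa2, Hsp90aa1 and Hspa1l lie farthest to the right and Hspa12a farthest to the left.

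Of the members tested, the stress-inducible HSP70 genes Hspa1b and Hspa1a showed the largest increases in icKO cardiomyocytes. Both entered the test only through icKO, so their calls as higher are not independent of the filter. Hspa1a and Hspa1b lie side by side on the minus strand of chromosome 17 (GRCm38; chr17:34969359-34972156 and chr17:34956429-34959238) and encode the HSP70 that heat and other stresses induce. They are near-copies, and the 250 bases before their starts, printed here to show how little distinguishes the pair, differ at 3 positions (98.8% shared). Sequences are from RefSeq (GRCm38.p6), read 5′ to 3′ on the minus strand (chr17:34972157-34972406 and chr17:34959239-34959488), and capitals mark the bases that differ.
Hspa1a: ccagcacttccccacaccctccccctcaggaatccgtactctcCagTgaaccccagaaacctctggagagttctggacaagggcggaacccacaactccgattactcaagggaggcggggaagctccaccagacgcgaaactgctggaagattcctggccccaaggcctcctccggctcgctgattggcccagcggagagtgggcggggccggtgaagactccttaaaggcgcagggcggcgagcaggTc
Hspa1b: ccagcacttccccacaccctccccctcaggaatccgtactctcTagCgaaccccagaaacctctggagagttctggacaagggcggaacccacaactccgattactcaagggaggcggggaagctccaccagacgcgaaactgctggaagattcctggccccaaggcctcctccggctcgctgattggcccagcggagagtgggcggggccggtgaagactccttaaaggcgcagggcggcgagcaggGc

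Their transcripts are also alike, with 58.8% of the 50-base stretches of Hspa1a found in Hspa1b and 62.3% in reverse, so the split of reads between them is uncertain. Hspa1a RPKM was 0.35, 0.951 and 0.692 in Ctrl and 22.2, 17.6 and 15.1 in icKO. Every icKO sample thus exceeded every Ctrl sample by more than an order of magnitude, with a log2 fold change of 4.65 ± 0.286 (SE; adjusted p = 1.25e-06) and 4.15 after median-ratio scaling. Hspa1b was nearly silent in Ctrl (0.027, 0.101 and 0.104, about 1.0, 5.0 and 4.9 reads) and stood at 18.3, 14.2 and 11.5 in icKO. Its log2 fold change of 6.39 ± 0.252 (adjusted p = 2.08e-07) depends on the pseudocount of 0.1, and was 3.84 with a pseudocount of 1 and 7.54 with 0.01. At E10.5 neither gene passed the filter, with at most 0.303 RPKM in any sample for Hspa1a and 0.206 for Hspa1b.

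Hspa1l, the neighbour of Hspa1a on the plus strand and best known from testis, was at 2.65, 2.63 and 2.63 RPKM in Ctrl and 23.2, 20.9 and 19.7 in icKO. The rise, 2.96 ± 0.0972 on the log2 scale (adjusted p = 1.17e-07; 2.43 after median-ratio scaling), far exceeded the spread in either group. Only 9.57% of its 50-base stretches occur in Hspa1a. Hspa2, another HSP70 known mainly from male germ cells, went from 0.568, 0.809 and 1.05 to 17.3, 14.9 and 13.6, a log2 fold change of 4.11 ± 0.197 (adjusted p = 4.24e-07; 3.60 after median-ratio scaling). Like Hspa1a and Hspa1b, Hspa2 entered the test only through icKO. By contrast Hspa8, the constitutive HSC70 and a much more abundant transcript, was at 185.6, 138.7 and 115.7 in Ctrl and 250.7, 124.9 and 235.8 in icKO. Its groups overlapped, and its log2 fold change of 0.44 ± 0.263 did not pass (adjusted p = 0.155) and turned to −0.10 under median-ratio scaling. Summed RPKM of the HSP70 family, most of which came from Hspa8, Hspa5 and Hspa9, was 488.6 to 566.2 in Ctrl and 479.5 to 636.9 in icKO, so the induced genes left the family total overlapping between groups.

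The divergent HSP70-like genes moved in opposite directions. Hspa12a RPKM fell from 1.78, 0.781 and 3.08 to 0.113, 0.177 and 0.247, a log2 fold change of −2.67 ± 0.463 (adjusted p = 0.000595). Its mean of 1.03 lies just inside the filter, its exons overlap those of Eno4 on the other strand, and without Ctrl replicate 1 or Ctrl replicate 3 it falls below the filter and was not tested. Hspa12b, an endothelial relative, was at 0.669, 1.06 and 1.36 in Ctrl and 1.49, 1.89 and 3.26 in icKO, a log2 fold change of 1.01 ± 0.323 (adjusted p = 0.0177). That call was lost under median-ratio scaling (0.51, adjusted p = 0.207) and without Ctrl replicate 1 or icKO replicate 3 (0.75 and 0.70), and the endothelial marker sum was also higher in icKO, whose part in this value was not tested. Hspa14, a ribosome-associated member, passed as deposited (0.47, adjusted p = 0.019), but its groups overlapped and its sign turned under median-ratio scaling (−0.06).

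**Figure D2:**
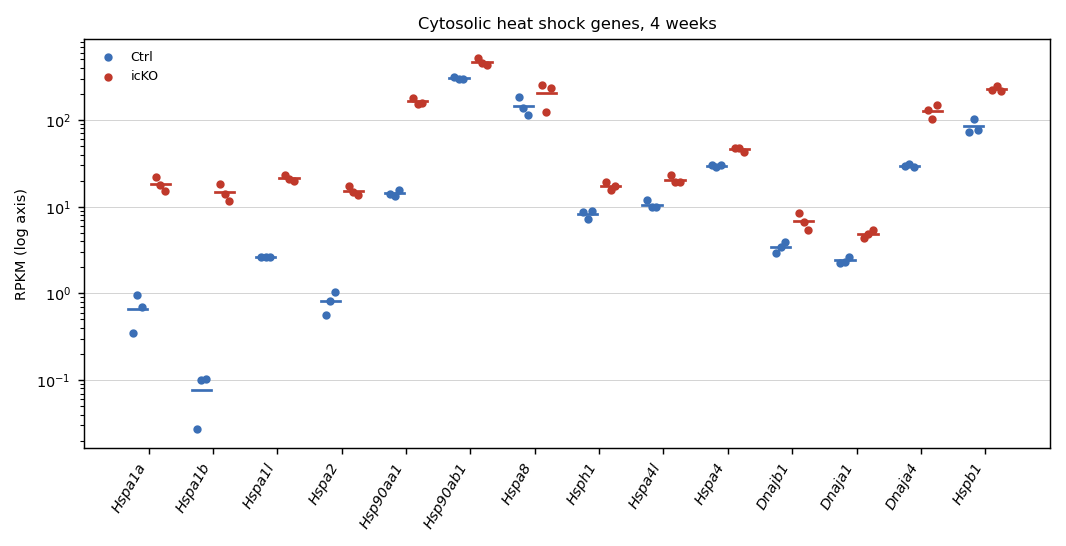
RPKM of cytosolic heat shock genes at 4 weeks on a log axis, with 1 point per sample (Ctrl, n = 3, and icKO, n = 3) and a bar at the group mean. Hspa1b rises from 0.027 to 0.104 in Ctrl to 11.5 to 18.3 in icKO, Hsp90aa1 from 13.3 to 15.7 to 152.4 to 180.9, while the groups of Hspa8 overlap.

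Hsp90aa1, the inducible HSP90, had the largest rise of its family. Its RPKM was 13.9, 13.3 and 15.7 in Ctrl and 180.9, 152.4 and 158.4 in icKO, a ratio of means of 11.5 and a log2 fold change of 3.51 ± 0.0959 (adjusted p = 8.11e-08; 2.97 after median-ratio scaling). The constitutive Hsp90ab1 was at 311.7, 299.3 and 301.0 in Ctrl and 519.4, 454.4 and 425.7 in icKO. Without overlap between groups, it rose by 0.61 ± 0.0867 (adjusted p = 0.000166), which is near the median of all genes, and under median-ratio scaling it was 0.07 (adjusted p = 0.446). Together the HSP90 genes, the ER form Hsp90b1 included, summed to 406.2 to 429.3 RPKM in Ctrl and 656 to 779.8 in icKO.

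All 3 HSP110 genes, the nucleotide exchange partners of HSP70, passed as higher on the deposited scale. Hsph1 rose from 8.58, 7.21 and 8.85 to 19.1, 15.4 and 17.5 (1.07 ± 0.116, adjusted p = 3.11e-05), and still passed after median-ratio scaling (0.53, adjusted p = 0.00298). Hspa4l rose from 11.9, 10 and 9.9 to 23, 19.4 and 19.3 (0.95 ± 0.111, and 0.41 after median-ratio scaling, adjusted p = 0.00777). Hspa4, the most abundant of the family, did not keep its call under that scaling (0.63 and 0.09, adjusted p = 6.7e-05 and 0.293).

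The cytosolic DNAJ partners that heat shock factor 1 is known to induce rose with them by smaller amounts. Dnajb1, the classic HSP40, was at 2.93, 3.41 and 3.88 in Ctrl and 8.36, 6.6 and 5.38 in icKO (0.96 ± 0.173, adjusted p = 0.000754; 0.43 after median-ratio scaling, adjusted p = 0.0409). Dnaja1 was at 2.25, 2.29 and 2.66 in Ctrl and 4.41, 4.82 and 5.41 in icKO (0.99 ± 0.13, adjusted p = 0.000103; 0.47 after median-ratio scaling). No sample of either gene lay in the range of the other group, but both were low, with means of 3.41 and 2.4 in Ctrl. Dnaja4, a type I DNAJ protein related to Dnaja1, was higher by more: 29.6, 31 and 28.6 in Ctrl against 130.4, 102.1 and 147.6 in icKO, a log2 fold change of 2.07 ± 0.126 (adjusted p = 1.2e-06; 1.53 after median-ratio scaling). Dnaja4 shares exonic sequence with Wdr61 on the other strand, and whether the counting used strand is not stated. Dnaja2 (−0.16, adjusted p = 0.124) did not pass and was lower under median-ratio scaling (−0.70).

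Dnajb6 is a cochaperone that suppresses aggregation and whose mutations cause a limb-girdle muscular dystrophy. It rose from 3.07, 2.83 and 2.5 to 7.14, 6.37 and 4.68 (1.07 ± 0.166, adjusted p = 0.000302; 0.54 after median-ratio scaling). Dnajc14, a membrane-bound cochaperone, rose from 4.83, 4.1 and 4.89 to 11.5, 11.5 and 9.15 (1.20 ± 0.126, adjusted p = 2.53e-05; 0.66 after median-ratio scaling), with exons that overlap Sarnp, Ormdl2 and Tmem198b. Of the 12 members listed as targets of heat shock factor 1, which include the mitochondrial Hspd1 and Hspe1, 9 rose, 2 fell and 1 (Hspa8) did not pass (75% higher and 16.7% lower, beside 60.6% and 18.1% of all genes). The 9 include Hspa1a and Hspa1b, 2 members that entered the test only through icKO, so their calls as higher are not independent of the filter. With these 2 included, the median log2 fold change of the 12 was 0.98, beside 0.57 for all genes, and 0.45 after median-ratio scaling, beside 0.04.

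Small heat shock proteins are among the most abundant chaperone transcripts of adult heart muscle. In Ctrl cardiomyocytes Hspb7 had the highest mean of all members (482.7 ± 207.3 SD), followed by Hspb6 (399.1 ± 22.5), with overlapping ranges. Hspb8, which works with BAG3 in the removal of misfolded proteins from muscle, rose from 156.4, 146.9 and 178.3 to 576.5, 583.5 and 511.9 (1.80 ± 0.0939, adjusted p = 6.09e-07; 1.26 after median-ratio scaling). It thereby came near Hspb6 but stayed below it in every icKO sample. Hspb6 was at 379.7, 393.9 and 423.8 in Ctrl and 606.6, 600.5 and 615.2 in icKO (0.61 ± 0.0723, adjusted p = 5.54e-05). Hspb6 did not pass after median-ratio scaling (0.07, adjusted p = 0.454), and its exons overlap those of Lin37 and Proser3.

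Hspb1 (HSP27), which protects the actin cytoskeleton, rose from 73, 103.4 and 77.6 to 221.6, 246.7 and 215.6 (1.44 ± 0.129, adjusted p = 9.26e-06; 0.90 after median-ratio scaling). Hspb2 rose from 39.7, 39 and 43.7 to 89.4, 123.4 and 92.8 (1.30 ± 0.124, adjusted p = 1.32e-05; 0.76 after median-ratio scaling). It lies head to head with Cryab, the αB-crystallin gene that falls outside the symbol rule, and their exons overlap. Cryab did not move with it, at 989.6, 869.2 and 690.3 in Ctrl and 757.6, 779.8 and 675.5 in icKO, with overlapping groups (−0.19, adjusted p = 0.201), and it passed as lower after median-ratio scaling (−0.73, adjusted p = 0.00115). Hspb3, the muscle partner of Hspb2, was at 3.77, 3.85 and 6.26 in Ctrl and 8.48, 10.8 and 8.65 in icKO (1.03 ± 0.196, adjusted p = 0.00108), and narrowly missed the threshold after median-ratio scaling (0.49, adjusted p = 0.0514).

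Hspb7 was at 360.8, 365.2 and 722.1 in Ctrl and 573.8, 388.7 and 591.9 in icKO. Ctrl replicate 3 was the highest of the 6, the groups overlapped, and the difference did not pass on either scale (0.16 and −0.38, adjusted p = 0.6 and 0.24). Hspb11, a component of intraflagellar transport rather than a chaperone of muscle, was at 2.1, 1.77 and 2.85 in Ctrl and 1.95, 2.27 and 1.59 in icKO (−0.19, adjusted p = 0.423), and was lower after median-ratio scaling (−0.70, adjusted p = 0.0138). In all, 5 of the 7 small heat shock genes tested passed as higher and 0 as lower, against 3 and 1 under median-ratio scaling. These shares of 71.4% and 42.9% higher stand beside 60.6% and 34.7% of all genes, and Hspb9 was below the filter. The summed RPKM of the family was 1016 to 1455 in Ctrl and 1956 to 2079 in icKO.

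**Figure D3:**
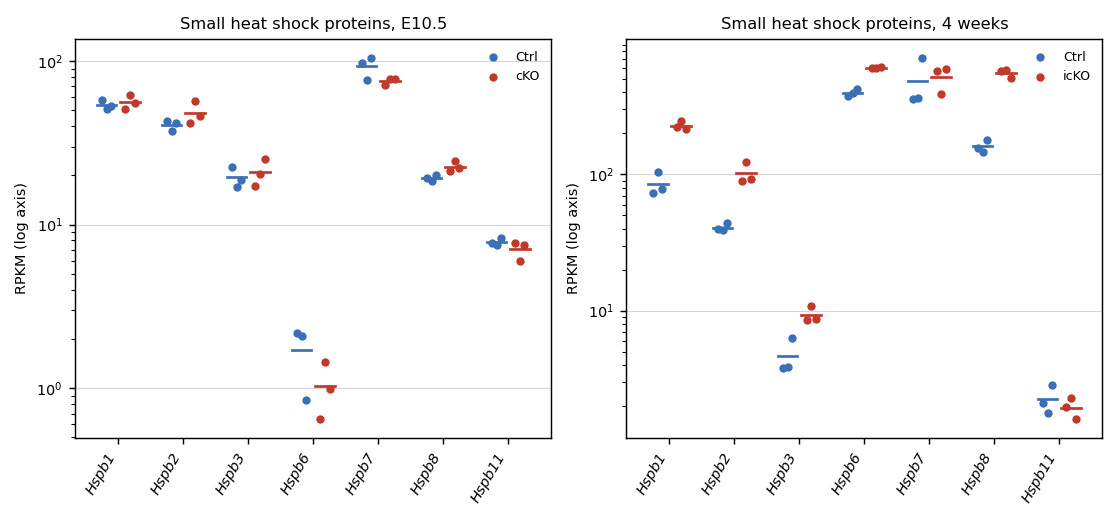
RPKM of the small heat shock genes at E10.5 (left) and 4 weeks (right) on a log axis, with 1 point per sample (n = 3 per group) and a bar at the group mean. At 4 weeks the groups of Hspb1, Hspb2, Hspb3, Hspb6 and Hspb8 do not overlap, whereas at E10.5 only those of Hspb8 do not, at 18.5 to 20 in Ctrl and 21.2 to 24.4 in cKO.

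Of the 10 ER members, 8 rose and 1 fell as deposited (80% and 10%, beside 60.6% and 18.1% of all genes), against 6 and 2 under median-ratio scaling (60% and 20%, beside 34.7% and 33.5%). All 7 DNAJ proteins of the list were among the 8, and the other was Hspa13. Hspa5 (BiP), the central HSP70 of the ER, was at 172.3, 158.9 and 173.3 in Ctrl and 165.3, 148.9 and 138.1 in icKO (−0.16, adjusted p = 0.115), and was lower after median-ratio scaling (−0.70, adjusted p = 7.18e-05). Hsp90b1 (GRP94) fell on both scales, from 103.6, 104.2 and 89.5 to 79.5, 69.8 and 71.9 (−0.43 ± 0.0891, adjusted p = 0.00186; −0.97 after median-ratio scaling). Hspa13, a small HSP70 of microsomes, rose from 2.99, 2.75 and 3.02 to 7.81, 7.06 and 6.41 (1.25 ± 0.115, adjusted p = 1.1e-05; 0.72 after median-ratio scaling).

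Among the DNAJ proteins of the ER, Dnajb9 (ERdj4), which helps dispose of misfolded proteins, rose from 13.4, 11.9 and 12.5 to 51.9, 43.3 and 39.7 (1.82 ± 0.109, adjusted p = 1.15e-06; 1.28 after median-ratio scaling). Dnajb11 (ERdj3), a folding partner of BiP, rose from 11.9, 13.4 and 12.4 to 34.6, 34 and 26.4 (1.32 ± 0.116; 0.78 after median-ratio scaling). Dnajc10 (ERdj5), a disulfide reductase, rose from 5.55, 4.9 and 5.05 to 14.7, 13.6 and 13 (1.40 ± 0.0969; 0.87 after median-ratio scaling). The groups of all 3 genes were far apart, and each passed on both scales.

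Dnajc3 (p58IPK), which binds unfolded proteins in the ER, rose from 6.85, 7.09 and 6.65 to 13.5, 13.8 and 12.5 (0.94 ± 0.0881; 0.40 after median-ratio scaling, adjusted p = 0.00216). Dnajb14, a membrane-bound ER cochaperone, rose from 2.41, 2.7 and 3.19 to 5.57, 5.23 and 5.78 (0.98 ± 0.13; 0.45 after median-ratio scaling, adjusted p = 0.012). The remaining pair passed only as deposited. Dnajb12 was at 16.8, 15.9 and 15 in Ctrl and 21, 20.7 and 18 in icKO (0.32 ± 0.0934, adjusted p = 0.0113), and its sign turned under median-ratio scaling (−0.22, adjusted p = 0.0506) and under quantile normalization (−0.20). Dnajc1 was at 3.63, 3.71 and 3.99 in Ctrl and 6.22, 5.05 and 6.2 in icKO (0.61 ± 0.119, adjusted p = 0.00128; 0.08 after median-ratio scaling, adjusted p = 0.571).

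ER stress elements, searched on both strands as CCAAT, 9 free bases and CCACG, were found in the promoters (250 bases before to 50 after a start) of 3 of the 58 members with a promoter in the RefSeq table (5.17%), and in those of 0.137% of all genes there. The 3 genes are printed below because they carry the same element and yet differed in their response, with Hsp90b1 lower, Hspa5 not passing and Dnajc3 higher. Windows are from GRCm38.p6, read on the strand of each gene, at chr10:86705524-86705674 (minus strand, 2 matches), chr2:34772020-34772049 (plus strand, inside an annotated exon) and chr14:118937812-118937931 (plus strand). Capitals mark the matches.
Hsp90b1: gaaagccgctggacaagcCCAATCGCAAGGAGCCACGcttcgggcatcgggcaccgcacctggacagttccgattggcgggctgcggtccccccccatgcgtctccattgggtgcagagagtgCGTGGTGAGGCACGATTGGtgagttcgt
Hspa5: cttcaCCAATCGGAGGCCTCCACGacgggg
Dnajc3: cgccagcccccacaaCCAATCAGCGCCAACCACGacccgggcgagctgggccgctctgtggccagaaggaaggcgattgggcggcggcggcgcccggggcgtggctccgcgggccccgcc

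Of the 10 mitochondrial members, 6 fell, 1 rose and 3 did not pass at 4 weeks as deposited (60% lower and 10% higher, beside 18.1% and 60.6% of all genes). Hspd1 (HSP60) and Hspe1 (HSP10) form the chaperonin of the matrix and share a promoter between them, on opposite strands of chromosome 1. Hspd1 RPKM fell from 78.2, 71.4 and 76.7 to 37, 40.6 and 45.3 (−0.88 ± 0.0912, adjusted p = 2.27e-05; −1.42 after median-ratio scaling). Hspe1 fell from 24, 20.5 and 22.1 to 15.4, 15.8 and 15.8 (−0.50 ± 0.0861, adjusted p = 0.000575; −1.04 after median-ratio scaling). For both genes every icKO sample was below every Ctrl sample, and their annotated exons overlap at the shared start.

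Hspa9 (mortalin), the HSP70 of the matrix and of the import motor, fell from 193.9, 183.6 and 182.7 to 122.1, 120.1 and 112.8 (−0.66 ± 0.0703, adjusted p = 2.82e-05; −1.20 after median-ratio scaling). Its DNAJ partner Dnaja3 (TID1), at a mean of 45.4 in Ctrl and 22.9 in icKO, fell by 0.99 on the log2 scale (adjusted p = 3.62e-06), with exons that overlap Coro7 and Vasn. Dnajc19, part of the import motor and mutated in a form of dilated cardiomyopathy with ataxia, fell by 0.82 (mean 19.5 in Ctrl and 11 in icKO, adjusted p = 0.000396). It overlaps Fxr1 on the other strand.

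The least studied of the group, Dnajc28, fell most, from 12, 10 and 9.66 to 2.59, 2.17 and 3.93 (−1.87 ± 0.2, adjusted p = 2.85e-05; −2.39 after median-ratio scaling). Dnajc15, which regulates the respiratory chain and import, was at means of 54.6 and 53 and did not pass (−0.04, adjusted p = 0.581), nor did Dnajc4 (−0.21, adjusted p = 0.0711) and Dnajc11 (0.11, adjusted p = 0.22). All 3 were lower after median-ratio scaling (−0.58, −0.75 and −0.42). Dnajc30 was the 1 mitochondrial member that passed as higher (0.30, adjusted p = 0.00504), and it passed as lower after median-ratio scaling (−0.24, adjusted p = 0.0187). For the mitochondrial list the median log2 fold change was −0.58, beside 0.57 for all genes, and −1.12 beside 0.04 after median-ratio scaling. Of the 7 cardiomyocyte markers, 6 fell in the same samples and Nkx2-5, a cardiac transcription factor, rose as deposited (mean 23.5 in Ctrl and 39.1 in icKO, 0.74, adjusted p = 0.00019; 0.20 after median-ratio scaling, adjusted p = 0.122), and the part of this shift in the mitochondrial values was not tested.

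Heat shock elements, searched on both strands as GAA, 2 free bases, TTC, 2 free bases and GAA, were found in the promoters of Dnajb6, Hspd1, Hspe1 and Hsph1, which are 6.9% of the 58 members with a promoter in the table, against 0.662% of all genes. The matches of Hsph1 lay after its start. Promoters of Hspa1a and Hspa1b were in the table and held no match to this exact pattern, while Hsp90aa1 had no promoter there. Other forms of the element were not searched, so a gene without a match cannot be said to lack one. At 4 weeks, 2 of the 4 genes with a match rose (Dnajb6 and Hsph1) and 2 fell (Hspd1 and Hspe1). A window of each direction is printed, from the shared promoter of Hspe1 and Hspd1 (chr1:55088053-55088082, plus strand) and from Dnajb6 (chr5:29735843-29735872, plus strand). Both windows lie in annotated exons, the former in one of Hspd1. In the former, matches on opposite strands overlap, and capitals mark the matched letters.
Hspe1: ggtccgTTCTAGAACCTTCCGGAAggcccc
Dnajb6: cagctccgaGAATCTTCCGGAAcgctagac

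**Figure D4:**
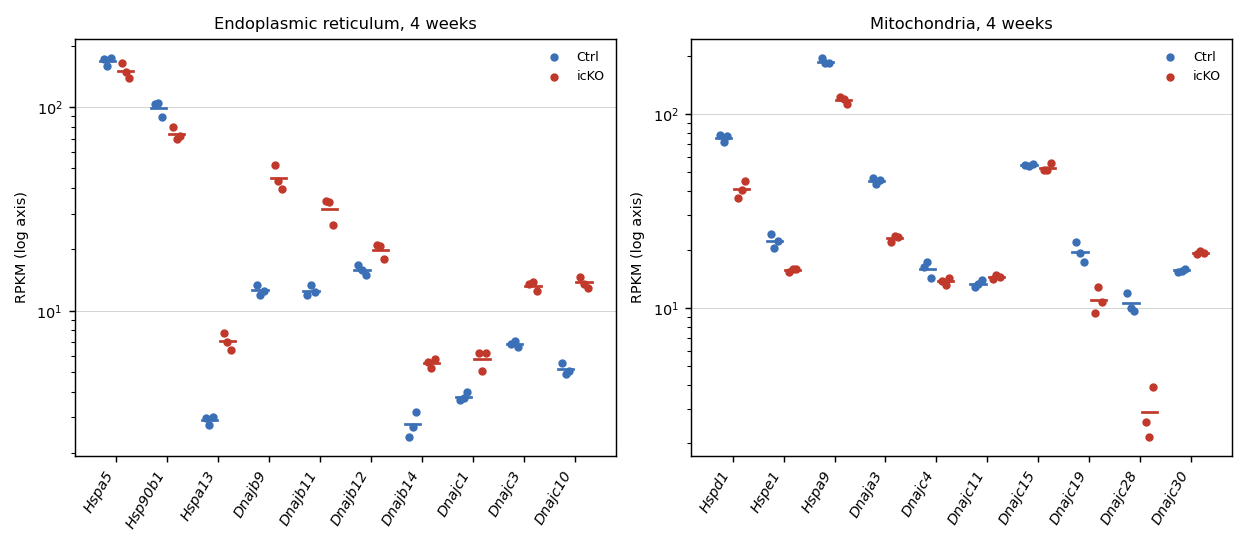
RPKM of the ER members (left) and mitochondrial members (right) at 4 weeks on a log axis, with 1 point per sample (n = 3 per group) and a bar at the group mean. Dnajb9, Dnajb11 and Dnajc10 stand above Ctrl in every icKO sample and Hsp90b1 below, while Hspd1, Hspe1, Hspa9, Dnaja3, Dnajc19 and Dnajc28 are below Ctrl in every icKO sample.

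The remaining DNAJ proteins varied. Of the 24 DNAJC members tested, 13 rose and 5 fell (54.2% and 20.8%, beside 60.6% and 18.1% of all genes), and their median of 0.44 was below that of all genes. Median-ratio scaling gave 7 and 12 (29.2% and 50%), beside 34.7% and 33.5% of all genes. Of the 9 DNAJB members, 8 rose and 0 fell (88.9% higher), against 6 and 1 under that scaling (66.7% and 11.1%), beside the same shares of all genes. Passing as higher on both scales were Dnajb4 (0.87 and 0.33), which is expressed in heart and skeletal muscle, Dnajc2 (0.88 and 0.34), the ribosome-associated zuotin, Dnajc5 (0.80 and 0.26), the cysteine string protein of vesicle release, Dnajc16 (0.88 and 0.34) and Dnajc18 (0.75 and 0.22). Dnajb2, Dnajc8, Dnajc12, Dnajc13 and Dnajc17 passed only as deposited, with values of 0.58 to 0.76 that lie near the median of all genes. Lower on both scales were Dnajc27 (−0.97 and −1.49), which lies on a small GTPase, Dnajc25 (−0.48 and −1.02) and Dnajc21 (−0.39 and −0.92), which acts in ribosome assembly. Dnajb5 (−0.22), Dnajc7 (0.13), Dnajc9 (−0.06) and Dnajc24 (−0.04) did not pass as deposited and were lower after median-ratio scaling (−0.76, −0.41, −0.58 and −0.55). The 9 members not tested at 4 weeks reached at most 0.733 RPKM in any sample. Near the filter, Hspa12a (mean 1.03) and Hspa12b (1.62) were inside and Hspb9 (0.221) and Dnajb13 (0.096) outside.

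Partners of the chaperones were listed by function and counted in the same fit. Of 25 cochaperones of HSP70 and HSP90 tested, 19 were higher and 2 lower (76% and 8%, beside 60.6% and 18.1% of all genes), against 9 and 6 after median-ratio scaling (36% and 24%, beside 34.7% and 33.5%), and their median of 0.58 was near that of all genes. The nucleotide exchange factors Bag3 (77.9, 80.1 and 86.3 in Ctrl, 181.8, 179.0 and 164.9 in icKO) and Bag5 (mean 2.37 in Ctrl and 10 in icKO, without overlap) rose by 1.10 and 2.03, and by 0.56 and 1.51 after median-ratio scaling. Fkbp4, the HSP90 immunophilin FKBP52, fell from 98.8, 77.3 and 83.4 to 9.5, 8.74 and 12.2 (−3.08 ± 0.139, adjusted p = 3.59e-07), the opposite direction to Hsp90aa1. All 8 subunits of the cytosolic chaperonin TRiC rose on both scales, with a median of 0.98 (0.45 after median-ratio scaling), led by Cct3 (1.69), Cct8 (1.59) and Tcp1 (1.38).

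Of 17 other ER folding genes, 12 were higher and 2 lower, which are 70.6% and 11.8% beside 60.6% and 18.1% of all genes (7 and 5 after median-ratio scaling, 41.2% and 29.4% beside 34.7% and 33.5%). Ero1l, an oxidase of disulfide formation, rose by 1.99, while Herpud1, a gene of ER-associated degradation, fell from 271.6, 214.1 and 114.7 to 28.9, 30.9 and 34.3 (−2.58 ± 0.263, adjusted p = 2.09e-05). Among 13 genes of mitochondrial import and proteolysis, 8 were higher and 4 lower, 61.5% and 30.8% (2 and 6 after median-ratio scaling, 15.4% and 46.2%), with Lonp1 up by 1.21 and Clpp at −1.05. The list of heat shock factors also holds Hsbp1, which encodes a protein that binds them. Of its 4 genes tested, 3 were higher and 0 lower, 75% higher (1 and 0 after median-ratio scaling, 25%). The 1 that still passed was Hsbp1 (0.44, adjusted p = 0.00087), so no factor itself passed after median-ratio scaling. Hsf1 itself was at means of 7.7 in Ctrl and 10.1 in icKO, a log2 fold change of 0.39 (adjusted p = 0.00673) that turned to −0.14 after median-ratio scaling (adjusted p = 0.255).

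At E10.5, 7 members passed, 2 as higher and 5 as lower in cKO hearts. Their shares of the 60 members tested, 3.33% and 8.33%, stand beside 0.864% and 3.45% of the 10885 genes tested. Passing beyond a log2 fold change of 1, 1 member was lower and 0 higher, where 0.542% and 0.239% of genes were. Median-ratio scaling gave 4 higher and 7 lower, beside 2.45% and 2.6% of genes, with 0 higher and 1 lower beyond 1, beside 0.322% and 0.377%. The median log2 fold change of the members was −0.19, beside −0.13 for all genes, and groups did not overlap for 20 members that were lower (33.3%, beside 22.6% of genes) and 5 that were higher (8.33%, beside 6.5%). The member with a mean just inside the filter was Hspa1l (1.18), and Dnajb3 (0.747) was just outside. The E10.5 calls depended on the libraries: omission of any 1 library other than cKO replicate 3 removed all 7, except that Dnajc15 still passed without Ctrl replicate 2. Without cKO replicate 3, 3 members were higher and 7 lower.

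Among cytosolic members, Hspa8 and Hsph1 fell. Hspa8 RPKM fell from 264.4, 266.6 and 271.3 in Ctrl to 116.2, 79.8 and 176.3 in cKO, a log2 fold change of −1.18 ± 0.245 (adjusted p = 0.0327; −1.06 after median-ratio scaling). Ctrl samples were nearly identical and cKO samples spread widely, but the groups did not overlap. Hsph1 fell from 23.6, 26.3 and 21.6 to 12.6, 12.3 and 18 (−0.75 ± 0.157, adjusted p = 0.0336; −0.63 after median-ratio scaling).

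In the organelles, Hspd1 fell from 167.1, 144.3 and 127.5 to 79, 75.1 and 103.8 (−0.77 ± 0.163, adjusted p = 0.0342), Hspa5 from 280.7, 306.3 and 297.6 to 180.5, 183.7 and 204.5 (−0.64 ± 0.139, adjusted p = 0.0386), and Dnajc15 from 26.3, 19.2 and 21.2 to 14.5, 14.7 and 15 (−0.57 ± 0.13, adjusted p = 0.0416). All 3 passed after median-ratio scaling as well (−0.65, −0.52 and −0.45). None of their cKO samples reached the lowest Ctrl sample. Hspe1 (−0.50, adjusted p = 0.051) and Hspa9 (−0.49, adjusted p = 0.0677) missed the threshold as deposited and passed after median-ratio scaling (−0.38 and −0.37, adjusted p = 0.0412 and 0.0454). Each of the 9 mitochondrial members tested had a value below 0 as deposited, as did 43 of all 60 members. The mitochondrial median was −0.49, beside −0.13 for all genes, and −0.37 beside −0.01 after median-ratio scaling. Dnajc30 (−0.14) turned to 0.03 under scaling without the 20 most abundant genes.

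The 2 genes that rose were Hspa2, from 4.95, 4.18 and 3.9 to 7.88, 9.01 and 6.41 (0.82 ± 0.159, adjusted p = 0.0275; 0.94 after median-ratio scaling), and Dnaja4, from 3.67, 3.42 and 3.23 to 5.19, 5.45 and 6.5 (0.71 ± 0.142, adjusted p = 0.0291; 0.83 after median-ratio scaling). Both were also higher at 4 weeks. Dnajb5 and Dnajb4 were at 0.57 and 0.61 and passed only after median-ratio scaling (0.69 and 0.72, adjusted p = 0.0245 and 0.0372).

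Members with the highest Ctrl level at E10.5 included Hsp90ab1 (695.8, 478.5 and 568.5 in Ctrl, 377.7, 395.6 and 491.0 in cKO; −0.46, adjusted p = 0.213) and Hsp90b1 (385.9, 367.5 and 329.0 in Ctrl, 241.9, 241.3 and 260.3 in cKO; −0.54, adjusted p = 0.0688). Hsp90aa1 was at 115.6, 86.5 and 84.9 in Ctrl and 67, 65.7 and 82.7 in cKO (−0.41, adjusted p = 0.157). Though their cKO samples were mostly below Ctrl, these 3 genes did not pass on either scale. None of the 7 small heat shock genes passed, at log2 fold changes of −0.63 to 0.23, and none of the 10 ER members other than Hspa5 did. Of the related lists, Fkbp4 (66.5, 51.1 and 61.5 in Ctrl, 38.1, 33.8 and 38 in cKO; −0.70, adjusted p = 0.0251), Ppid (−0.56), Cct5 (−0.55), Manf (−0.69), Sdf2l1 (−0.71) and the mitochondrial cochaperone Hscb (−0.80) passed as lower, and no listed gene passed as higher as deposited. Those were 2 of 26 cochaperones (7.69%) and 1 of 8 TRiC subunits (12.5%), beside 3.45% of all genes. They were also 2 of 17 other ER folding genes (11.8%) and 1 of 13 genes of mitochondrial import and proteolysis (7.69%). Each of these calls was lost in 3 to 5 of the 6 fits that left out 1 library, and that of Cct5 was marginal (adjusted p = 0.0499).

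The knockout effect was compared between stages for the 60 members tested at both. In a fit of all 12 samples, 39 members had a higher log2 fold change at 4 weeks than at E10.5 and 3 a lower one (65% and 5%), beside 59.4% and 9.29% of the 8909 genes tested. Median-ratio scaling gave 19 and 15, beside 28.3% and 24.8% of genes. Beyond a log2 difference of 1, 24 were higher and 1 lower (5 and 4 after median-ratio scaling), beside 34.3% and 5.03% of genes (10.7% and 12.4%). The stages differ in age, in tissue (whole heart or isolated cardiomyocytes), in Cre driver and in time since recombination, and these cannot be told apart. Differences are of fold changes within each table.

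The largest difference was that of Hsp90aa1, at −0.41 at E10.5 and 3.51 at 4 weeks (difference 3.92 ± 0.192, adjusted p = 1.49e-08; 3.26 after median-ratio scaling). Hspa2 followed with 3.29 ± 0.269 and Hspa1l with 2.44 ± 0.303 (2.66 and 1.80 after median-ratio scaling). At 4 weeks Hspa2 entered the test only through icKO. At E10.5 Hspa1l was at 0.967, 1.38 and 0.588 in Ctrl and 1.48, 1.43 and 1.23 in cKO. Dnajb9 differed by 1.86 ± 0.197 and was at 5.68, 5.42 and 5.57 in Ctrl and 4.63, 4.95 and 6.81 in cKO at E10.5. In the opposite direction, Hspa12a differed by −2.18 ± 0.555 (adjusted p = 0.00333), with 1.74, 1.4 and 1.76 in Ctrl and 1.44, 1.15 and 0.873 in cKO at E10.5. It was not tested without adult Ctrl replicate 1 or 3.

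Hsph1 was the 1 member that passed in opposite directions, lower at E10.5 and higher at 4 weeks (difference 1.82 ± 0.21, adjusted p = 6.81e-06; 1.17 after median-ratio scaling). Its E10.5 call held in only 1 of the 6 fits that left out 1 library. Hspd1 was lower at both stages, and its difference did not pass as deposited (−0.11, 95% confidence interval −0.52 to 0.30, adjusted p = 0.62) but did after median-ratio scaling (−0.77, adjusted p = 0.00179). The 10 ER members all had a difference above 0 as deposited, where the median of all genes was 0.69. Hspa5, Hsp90b1, Dnajb12 and Dnajc1 were below that median and the others above it. Of the 10, 9 passed as higher (90%, beside 59.4% of all genes). After median-ratio scaling, 6 were higher and 1 lower (60% and 10%, beside 28.3% and 24.8% of all genes).

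**Figure D5:**
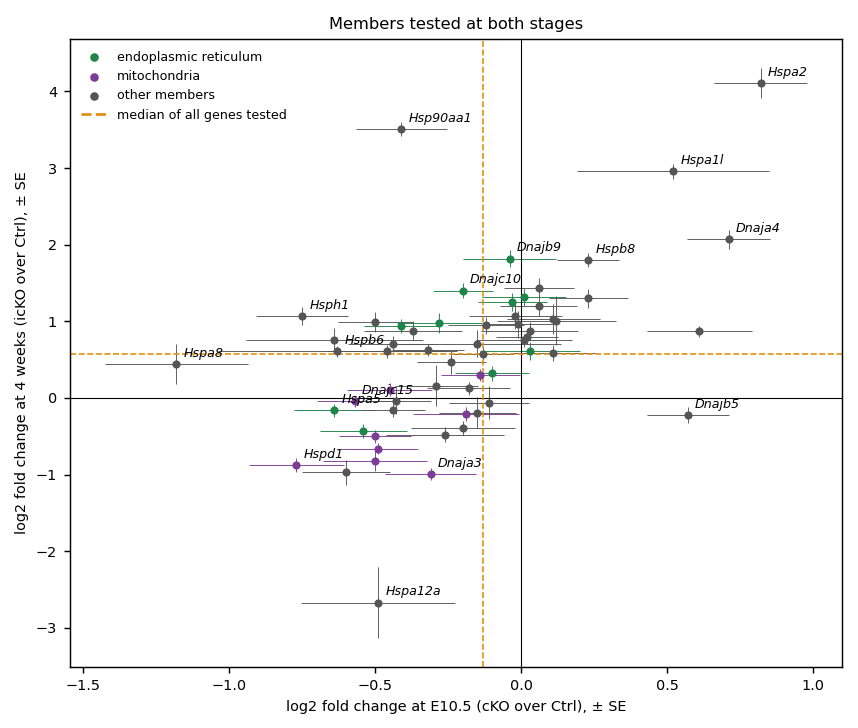
Log2 fold change of the 60 members tested at both stages, with E10.5 on the horizontal axis and 4 weeks on the vertical axis, on RPKM as deposited, with bars of ± SE, dashed lines at the medians of all genes tested (−0.13 and 0.57) and colours for ER, mitochondrial and other members. Hsp90aa1, Hspa2, Hspa1l and Dnaja4 lie at the top, Hspa12a at the bottom, and Hspa8, Hspd1 and Hsph1 far to the left.

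In Ctrl, the order of the members differed between embryonic heart and adult cardiomyocytes, and RPKM, being per length, allows levels of different genes to be set side by side. At E10.5 the 5 highest means were those of Hsp90ab1 (580.9 ± 109.2 SD), Hsp90b1 (360.8 ± 29.1), Hspa5 (294.8 ± 13), Hspa8 (267.5 ± 3.52) and Hspd1 (146.3 ± 19.9). Ranges of neighbours in this order did not overlap, though that of Hspd1 overlapped with Hspa9 (115.7 ± 15.6) next to it. In the adult, Hspb7 and Hspb6, which overlap, were followed by Hsp90ab1 (304.0 ± 6.74), Hspa9 (186.7 ± 6.24) and Hspa5 (168.1 ± 8.04). Hspa5 overlapped with Hspb8 next to it (160.6 ± 16.1). Hspb6 was at 2.18, 2.09 and 0.841 in E10.5 Ctrl and 0.644, 1.45 and 0.987 in cKO. The tables were normalized separately, so the order within each stage is given and no fold between them.

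Small heat shock genes at E10.5 were otherwise at means of 93.1 (Hspb7), 53.9 (Hspb1), 40.7 (Hspb2), 19.4 (Hspb3), 19.2 (Hspb8) and 7.82 (Hspb11) in Ctrl and 75.4, 56.2, 48.1, 21, 22.6 and 7.08 in cKO. Their sum of 209.6 to 249.8 in Ctrl overlapped with 210.7 to 248.4 in cKO, whereas the HSP70 sum was 711.3 to 718.1 in Ctrl and 380.6 to 507.7 in cKO. Most of the HSP70 sum came from Hspa8, Hspa5 and Hspa9 (Ctrl means 267.5, 294.8 and 115.7, cKO means 124.1, 189.6 and 81.8). Of the 9 HSP70 members tested, 6 had a log2 fold change below 0 and 3 above.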

How the data were processed

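RNA was sequenced from 12 samples, 3 per group. Libraries were made with a ribosomal depletion kit. The authors mapped reads to GRCm38 (mm10) and deposited RPKM values per gene, 1 table per stage. The submitters' processing notes name cutadapt 2.6, STAR 2.5.3a, HOMER 4.11.1 and DESeq2 1.12.4. The annotation and the use of strand are not given in the sources used here. The deposited tables also hold a mean RPKM, which served as a check, and the authors' own log2 fold changes and FDR values, which were not used.

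Each stage was fitted with limma 3.58.1 (R 4.3.3; lmFit, eBayes with trend) on log2(RPKM + 0.1). Genes entered with a mean above 1, and the Benjamini-Hochberg adjustment ran over every gene that entered. A log2 fold change on this scale understates changes of low genes. An exact permutation test of 3 against 3 cannot go below 0.1. Stages were compared by a contrast over 12 samples. Fits were tested on simulated data. RPKM are not counts, so no count test was run. Depth was estimated as the read number at which low RPKM values lie nearest to whole reads, and 68.5% to 73.1% of them lay within 0.1 of one, where chance gives 20%. Such depths cover counting error only. Alternatives were pseudocounts of 1 and 0.01, no filter, a mean above 5, values above 1 required in 3 or more samples, and median-ratio, quantile and top-20-free scaling, no trend, sample weights, the replicate number as a block, and omission of each library.

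Members and lists were chosen with earlier results of these data known. Values per sample are given for members past a log2 fold change of 1 at 4 weeks without overlap (up to 20), those passing at E10.5, the 5 highest in Ctrl per stage, every tested member of the heat shock factor 1, ER and small heat shock lists, and the 5 largest stage differences. Promoters came from RefSeq (58 of 72 members matched). Tables were handled with Python 3.11.15 and pandas 2.3.3.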

Additional observations from a re-analysis of the deposited data

Results flagged for a closer look

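Knockout effects differed between the stages for 39 members that were higher at 4 weeks than at E10.5 and 3 that were lower, by the contrast of the 2 effects (limma, adjusted p under 0.05). These were 65% and 5% of the 60 members tested, beside 59.4% and 9.29% of all genes tested, so the share of higher members was close to that of genes at large. The largest differences in log2 fold change were 3.92 for Hsp90aa1, 3.29 for Hspa2, 2.44 for Hspa1l, −2.18 for Hspa12a and 1.86 for Dnajb9. Hspa12a was not tested without adult Ctrl replicate 1 or 3. Hsph1, with 1.82, was singled out because it passed as lower at E10.5 and as higher at 4 weeks. Its E10.5 call held in only 1 of the 6 fits that left out 1 library. After median-ratio scaling the counts were 19 and 15 (31.7% and 25%, beside 28.3% and 24.8% of all genes). The 6 genes named kept their direction and passed, at 3.26, 2.66, 1.80, −2.71, 1.21 and 1.17. Age, tissue preparation, Cre driver and time since recombination cannot be told apart in these differences.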

How the results depend on the processing

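Scaling moved the 4 weeks counts most. As deposited 40 members were higher and 11 lower, 18 and 2 of them beyond 1. Median-ratio scaling gave 26 and 22 (8 and 9 beyond 1), as did its combination with a pseudocount of 1, chosen after seeing the data (26 and 22, with 8 and 7 beyond 1). Quantile normalization gave 22 lower (9 higher and 8 lower beyond 1), and scaling without the 20 most abundant genes 6 lower beyond 1. A mean RPKM above 5, or RPKM above 1 in at least 3 samples, left 1 lower beyond 1, and omission of single libraries gave 1 to 4 there. That count was 1 without Ctrl replicate 1, 2 without Ctrl replicate 3 (Hspa12a was not tested in either), and 4 without icKO replicate 2 or 3, where Dnaja3 and Dnajc27 passed −1. Dnajb12 reversed to −0.22 (median-ratio), −0.20 (quantile) and −0.21 (median-ratio with a pseudocount of 1). At E10.5, 2 members were higher and 5 lower, 1 of them beyond 1. With no filter and with eBayes without a trend, limma passed 0 higher and 0 lower, 0 beyond 1, with 5 higher and 16 lower at an unadjusted p under 0.05 in the former (3.24% and 10.7% of all genes) and 4 and 21 in the latter (4.53% and 17.8%). A mean above 5 gave 9 lower (469 of 6642 genes). Median-ratio scaling gave 4 higher (267 of 10885 genes), and scaling without the top 20 genes 4 higher (409 genes). Quantile normalization gave 4 higher and 3 lower, 0 beyond 1 (309 and 260 genes). Sample weights gave 5 higher and 21 lower (400 and 1780 genes). Omission of single libraries gave 0 to 3 higher, 0 to 7 lower and 0 to 1 beyond 1. For the stage difference (39 higher and 3 lower, 24 and 1 beyond 1), median-ratio scaling gave 19 and 15 (5 and 4 beyond 1), quantile normalization 24 and 14 (10 and 3), scaling without the top 20 genes 10 lower (9 and 3), and sample weights 5 lower. Lower beyond 1 were 0 with a pseudocount of 1, with a mean above 5 and with RPKM above 1 in at least 3 samples, 2 with no filter, and 0 to 1 without single libraries, with 0 without adult Ctrl replicate 1 or 3, where Hspa12a was not tested. Counts over all genes moved with scaling as well. Quantile normalization gave 3530 higher and 3007 lower of 9517 genes at 4 weeks, where 5765 and 1727 passed as deposited. For the stage difference it gave 2690 and 2083 of 8909 genes, where 5296 and 828 passed as deposited. The cause of these moves was not tested.

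Same-numbered samples did not pair, with correlations of their deviations of −0.07 to 0.10 at E10.5 and 0.04 to 0.15 at 4 weeks. With the replicate number as a block, 2 members were higher and 2 lower at E10.5, and 40 and 11 at 4 weeks.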
